A study of Homo sapiens with 27 samples.

Results

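The 10 enzymes described here make purine and pyrimidine nucleotides from small precursors, and all 10 of the symbols looked for were present among the 13523 genes of the table. The rule lists them by name and uses no measured value, although it was set with earlier results of these data known. They comprise 4 pyrimidine enzymes (CAD, DHODH, UMPS and CTPS1) and 6 purine enzymes (PPAT, GART, PFAS, PAICS, ATIC and IMPDH2). All 10 passed the filter on low values and were tested. De novo synthesis builds the nucleotide rings from glutamine, aspartate, glycine, bicarbonate and folate-bound carbon, onto or before attachment to phosphoribosyl pyrophosphate, so it draws directly on amino acids. Proliferating cells use it to supply RNA, DNA and nucleotide sugars, and the kinase complex mTORC1 is known to raise its output, through phosphorylation of CAD and through factors that control purine and folate genes. Salvage enzymes, which reuse bases and nucleosides, are the other route to the same products.

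The cells were 501mel, a human melanoma line that expresses MITF at a high level, and the libraries were QuantSeq Forward 3′ end libraries of polyadenylated RNA, which give 1 fragment at the end of each transcript, so reads were not divided by gene length. WT cells, the parental line with no edit, were non-treated or spent 12 h either in HBSS, a glucose saline that lacks amino acids, or in 250 nM Torin1. Torin1, called Torin below, blocks the kinase mTOR. Cells with TFE3 KO, with TFEB KO or with both genes knocked out (DKO) were controls, labelled 12 h, or received that Torin dose for 12 h. The WT controls carry no time in the labels. Comparisons that use both kinds of control therefore cannot tell genotype from control handling. For the WT responses to HBSS and to Torin, the labels do not show whether the controls were handled for the same 12 h. Treatment there cannot be told apart from such a difference. TFE3 and TFEB are transcription factors of the MITF family that bind E-box sequences and enter the nucleus when mTORC1 is inhibited. The knockouts were made with Cas9 and guide RNAs and isolated as clones, so clone and genotype cannot be told apart. HBSS was applied to WT cells only. The labels do not say whether the libraries of a group came from separate cultures, so p-values measure the spread between these libraries, which may be technical.

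Each group is labelled with 3 libraries. The column of WT HBSS replicate 3 was identical to that of WT Torin replicate 1 across the 13523 genes, and both were left out, so n = 2 in WT HBSS and WT Torin and n = 3 in each other group. In that column UMPS was 50.9, against 47.4 and 53.4 in the other WT HBSS libraries and 82.5 and 95.3 in the other WT Torin libraries. CTPS1 was 43.4 there, against 43.3 in both of the former and 19.2 and 27.5 in the latter. For every member the column lay nearer to WT HBSS than to WT Torin, and which label is right was not tested. Libraries held 4147050 to 6526392 reads. Values are normalised read counts on the counts-per-million (CPM) scale, and the floor of 3 reads, which a zero count leaves possible, corresponded to 0.460 to 0.711. The members stood far above that floor, with 54 reads in the lowest library for DHODH and 2163 in the highest for ATIC. TFE3 was 24.0 ± 0.285 (SD, n = 3) in WT controls, 6.30 ± 1.27 (SD, n = 3) in TFE3 KO controls and 6.35 ± 0.470 (SD, n = 3) in DKO controls. TFEB was low in controls of every genotype, where WT held 3.25 ± 0.827 (SD, n = 3), against 1.11 ± 0.485 (SD, n = 3) for TFEB KO, 0.681 ± 0.764 (SD, n = 3) for TFE3 KO and 0.661 ± 0.457 (SD, n = 3) for DKO, so TFEB RNA did not set the TFEB KO clone apart from the other clones. All 7 melanocyte lineage markers were present, with a summed value of 5123 to 14453, while 0 of 5 immune and 0 of 3 endothelial markers were in the table. Of 6 fibroblast markers 2 were in the table, with a summed value of 0.208 to 6.62, and of 4 keratinocyte markers only KRT10 was.

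**Figure D1:**
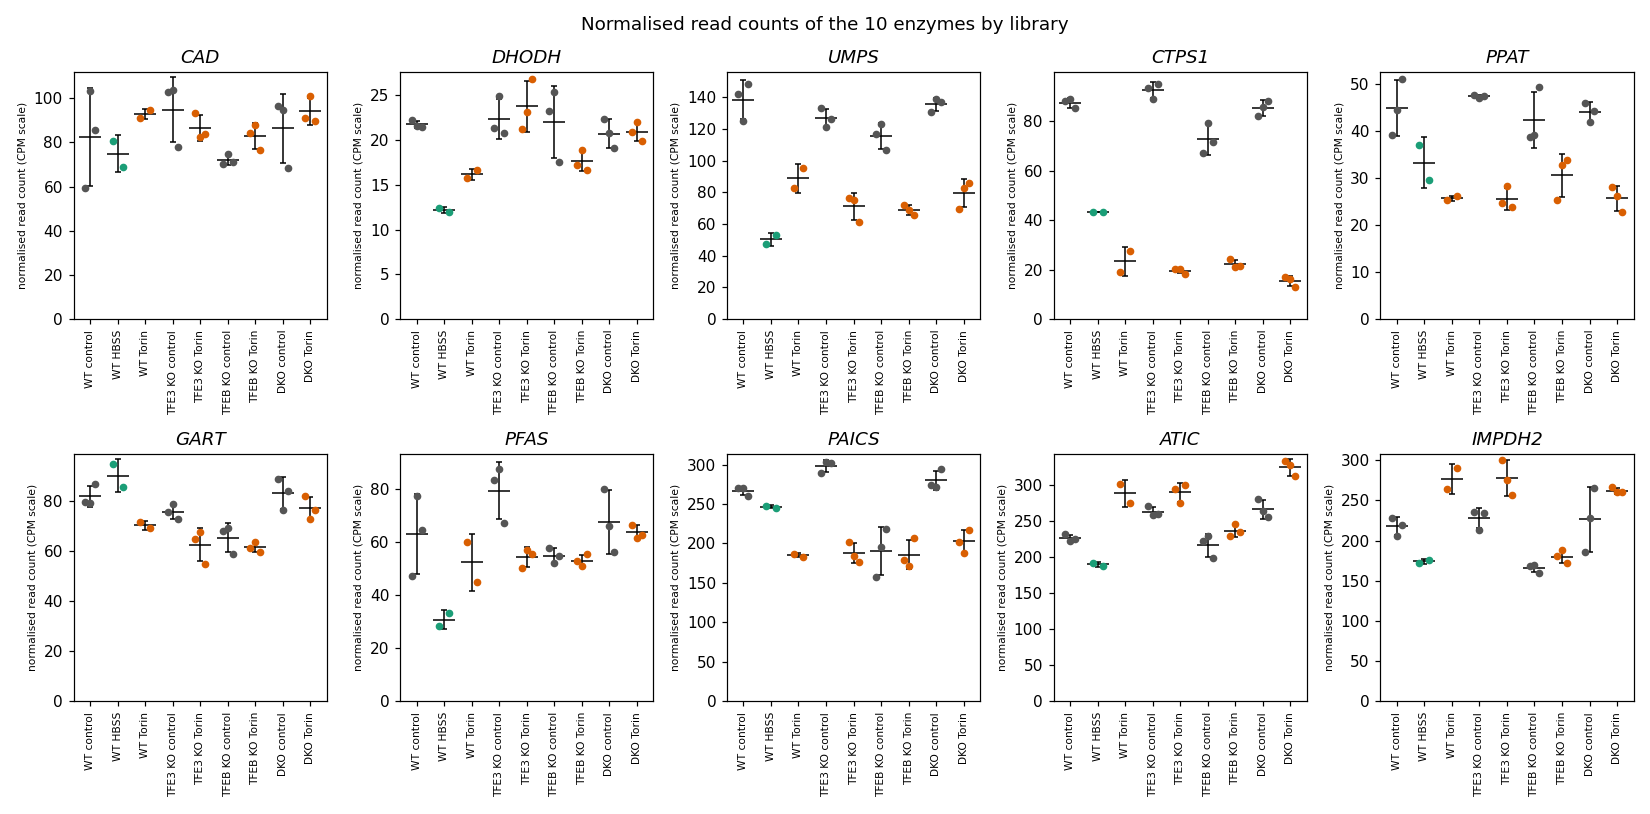
Normalised read counts (CPM scale, y axis from 0) of the 10 enzymes in 25 libraries of 9 groups. Points are libraries (grey control, green HBSS, orange Torin) and black bars are the group mean and SD. CTPS1 lies between 67.2 and 95.3 in the control libraries and between 13.0 and 27.5 in the Torin libraries of every genotype, whereas CAD overlaps in most groups.

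Because TFE3 and TFEB bind E-boxes, the 250 bases before the RefSeq start site were read for 9 of the members. IMPDH2 has no window here. The E-box CACGTG was found before PPAT, DHODH and ATIC, and in 8.29% of 14607 windows of genes in the table. The longer palindrome TCACGTGA was found before 0 of the 9, and in 1.43% of windows. UMPS held the cAMP response element TGACGTCA (2.46% of windows), PFAS the E-box variant CATGTG (6.61%), and 7 members held at least 1 GC box, GGGCGG (62.3%). CAD, DHODH and GART held the CCAAT box (33.1%), and the ATF4 composite TGATGCAAT (0.123%) was found before 0 members. The windows of PFAS (chr17:8249039-8249288), GART and CTPS1 lie inside those genes at the annotated positions given below. All motifs were searched on both strands. The matches before the 3 E-box genes, before UMPS and before CTPS1, whose RNA moved most, are shown in 30 bases each, 5′ to 3′ on the strand of the gene, with the matched letters in capitals (sequences from RefSeq, GRCh38.p14).
PPAT, chr4:56435780-56435809, minus strand, E-box at -182 from the start: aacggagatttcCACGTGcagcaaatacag
DHODH, chr16:72008573-72008602, plus strand, E-box at -159: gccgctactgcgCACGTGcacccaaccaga
ATIC, chr2:215312001-215312030, plus strand, E-box at -46: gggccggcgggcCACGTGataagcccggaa
UMPS, chr3:124730394-124730423, plus strand, TGACGTCA at -47: gacttcgcgggTGACGTCAtcggggcgccg
CTPS1, chr1:40979632-40979661, plus strand, 2 overlapping GC boxes from -52: gcactccaggccCCGCCCCGCCCcgcgccc
PPAT and PAICS are transcribed away from each other on chromosome 4, with annotated starts 126 bases apart, so the stretch shown for PPAT lies within an annotated exon of PAICS. The stretches of ATIC and CTPS1 lie within annotated exons of those genes. That of DHODH overlaps the start of an annotated DHODH exon in part, and that of UMPS overlaps in part an exon annotated to another gene. A match is a description of the letters, and these data hold no binding measurement.

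HBSS against non-treated WT cells asks how the enzymes' RNA responded to 12 h in that saline. The paper grew its human melanoma lines, apart from 1 named HBL, in RPMI medium with serum. Loss of amino acids therefore cannot be told apart from other differences between medium and saline. Of the 10 members 7 fell and 0 rose (adjusted p under 0.05, limma), where 24.7% of the 13052 genes tested fell and 23.6% rose. The median log2 fold change was -0.37 over the members, -0.89 over the pyrimidine enzymes and -0.29 over the purine enzymes, against -0.03 over all genes tested. All 4 pyrimidine enzymes except CAD fell, and of the purine enzymes PPAT, PFAS, ATIC and IMPDH2 did.

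UMPS, which makes UMP from orotate (chromosome 3, 124730433 to 124749273, plus strand, hg38), fell the most. It was 142, 125 and 149 in the WT controls, 47.4 and 53.4 in HBSS. The HBSS libraries lay far below every control library, a log2 fold change of -1.44 with SE 0.11 and adjusted p 5.82e-16, which is 2.71-fold lower. On the fitted scale it was the only member past 2-fold in this comparison, and 6.2% of all genes tested fell by that much. CTPS1 and PFAS lay close to that line, at 1.996-fold and 1.978-fold lower.

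CTPS1, which makes CTP from UTP and glutamine (chromosome 1, 40979300 to 41012565, plus strand), was 88.1, 88.9 and 85.3 in the controls and 43.3 in both HBSS libraries. The log2 fold change was -0.997 (SE 0.13, adjusted p 9.58e-09). DHODH, the mitochondrial enzyme that oxidises dihydroorotate (chromosome 16, 72008588 to 72027664, plus strand), went from 22.2, 21.6 and 21.5 to 12.4 and 11.9. Its fall was 0.79 on the log2 scale (adjusted p 4.94e-05), and its 2 HBSS libraries were the lowest of all 25. CAD, which carries the first 3 activities of pyrimidine synthesis in 1 protein (chromosome 2, 27217369 to 27243943, plus strand), was 59.2, 103 and 85.5 in the controls and 80.8 and 69.1 in HBSS. These libraries overlapped, and the log2 fold change of -0.11 (95% interval -0.45 to 0.23) did not pass.

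Among the purine enzymes, PFAS moved most. PFAS converts the formylated intermediate FGAR to FGAM with glutamine (chromosome 17, 8247618 to 8270491, plus strand). It was 47.2, 77.2 and 64.4 in the controls and 28.3 and 33.3 in HBSS, a log2 fold change of -0.98 (SE 0.15, adjusted p 5.42e-07). PPAT, the amidotransferase that commits to the purine route (chromosome 4, 56393362 to 56435615, minus strand), went from 39.1, 44.3 and 51.1 to 37.0 and 29.5. Its fall of 0.42 on the log2 scale passed with adjusted p 0.0127, and no longer passed without WT control replicate 3 (adjusted p 0.0857) or without WT HBSS replicate 2 (adjusted p 0.258).

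IMPDH2, which turns IMP towards GMP (chromosome 3, 49024325 to 49029447, minus strand), was 228, 206 and 219.9 in the controls and 172 and 176 in HBSS. The log2 fold change was -0.32 (adjusted p 0.00402). ATIC, which closes the purine ring to give IMP (chromosome 2, 215311956 to 215349773, plus strand), was 231, 222 and 225 in the controls and 191 and 188 in HBSS. Its log2 fold change of -0.25 passed with adjusted p 0.00601 and did not without WT HBSS replicate 2 (adjusted p 0.0554). With the identical column counted as WT Torin, which changes the spread of the fit, neither ATIC (adjusted p 0.0606) nor IMPDH2 (0.102) passed in HBSS. PAICS and GART, which carry middle steps of the route, did not pass. PAICS (chromosome 4, 56435741 to 56464578, plus strand) had a log2 fold change of -0.11 (95% interval -0.30 to 0.08), and GART (chromosome 21, 33503931 to 33543491, minus strand) one of 0.14 (-0.08 to 0.35). So the neighbours PPAT and PAICS, which start 126 bases apart, had values of -0.42 and -0.11 in HBSS, and the difference between these was not tested.

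**Figure D2:**
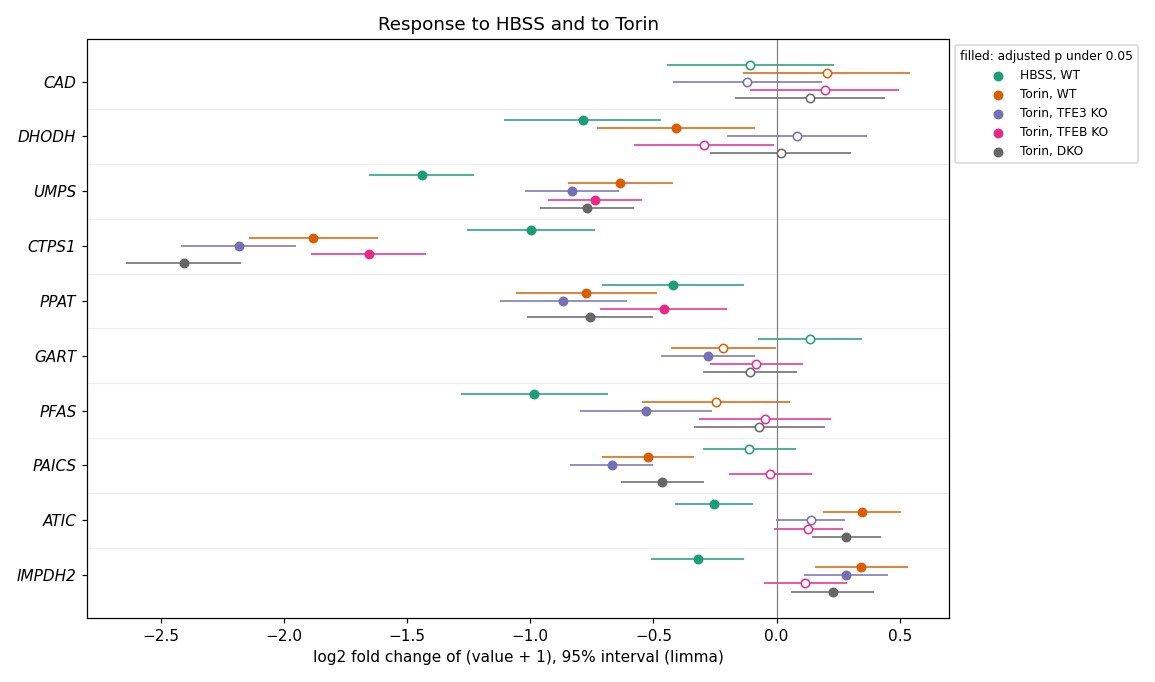
Log2 fold changes of the 10 enzymes (x axis, limma on log2 of value + 1) with 95% intervals for HBSS in WT and for Torin in the 4 genotypes. Filled points have an adjusted p under 0.05. UMPS, CTPS1 and PPAT are filled and to the left of 0 in all 5, and CTPS1 lies between -1.66 and -2.41 under Torin against -0.997 in HBSS.

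Torin against control cells of the same genotype asks how mTOR inhibition acted on the enzymes with and without TFE3 and TFEB. In WT 5 members fell and 2 rose, where 23.4% of all genes tested fell and 20.5% rose. In TFE3 KO 6 fell and 1 rose (26% and 25.4% of all genes), in TFEB KO 3 fell and 0 rose (21% and 17.4%), and in DKO 4 fell and 2 rose (26.2% and 25.4%). In TFEB KO the share of members that fell was close to that of all genes. The median log2 fold change of the members was -0.33 in WT, -0.40 in TFE3 KO, -0.06 in TFEB KO and -0.09 in DKO, against 0.00, 0.02, 0.00 and 0.02 over all genes tested. The 4 responses use separate libraries, except that WT controls are shared with the HBSS comparison.

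CTPS1 fell the most of the members in every genotype, and was the only member past 2-fold, where 4% of all genes fell that far in WT, 4.69% in TFE3 KO, 1.65% in TFEB KO and 4.29% in DKO. In WT it went from 88.1, 88.9 and 85.3 to 19.2 and 27.5 (log2 fold change -1.88, SE 0.13, adjusted p 1.38e-16, 3.68-fold lower). In TFE3 KO it went from 93.6, 89.1 and 95.3 to 20.4, 20.3 and 18.3 (-2.18, adjusted p 5.13e-21). Every Torin library in these genotypes lay below every control library and below both HBSS libraries. In TFEB KO it went from 67.2, 79.5 and 71.5 to 24.3, 21.2 and 21.6 (-1.66, adjusted p 3.19e-16). In DKO it went from 82.1, 85.9 and 88.1 to 17.1, 16.1 and 13.0 (-2.41, adjusted p 1.86e-22, 5.30-fold lower). The DKO libraries under Torin were the lowest of the series for CTPS1.

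UMPS also fell in all 4 genotypes, by less. It was 82.5 and 95.3 in WT under Torin (log2 fold change -0.63, SE 0.11, adjusted p 2.94e-06). In TFE3 KO it went from 133, 121 and 126 to 76.7, 75.3 and 61.6 (-0.83, adjusted p 3.13e-10). In TFEB KO it went from 117, 123 and 107 to 71.7, 69.0 and 66.0 (-0.74, adjusted p 1.70e-08). In DKO 131, 139 and 137 became 69.5, 82.5 and 86.2 (-0.77, adjusted p 2.47e-09). Control and Torin libraries did not overlap in any of the genotypes, and every Torin library stayed above both HBSS libraries. The calls of CTPS1 and UMPS in HBSS and in all 4 Torin responses held in every alternative setting tried.

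PPAT was the third member to fall in all 4 genotypes. It was 25.3 and 26.1 in WT under Torin (log2 fold change -0.77, SE 0.14, adjusted p 1.66e-05). TFE3 KO libraries went from 47.7, 46.9 and 47.4 to 24.6, 28.3 and 23.9 (-0.87, adjusted p 1.49e-07). DKO libraries went from 46.0, 41.8 and 44.1 to 28.0, 26.2 and 22.8 (-0.76, adjusted p 2.27e-06). In TFEB KO the control libraries were 38.7, 39.2 and 49.2 and the Torin libraries 25.4, 32.7 and 33.8, a value of -0.46 with adjusted p 0.00345. That call did not hold without TFEB KO Torin replicate 1 (adjusted p 0.0573), while in each genotype all Torin libraries were below all control libraries.

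PAICS, which shares the start region of PPAT, fell in 3 of the 4 genotypes. The WT libraries went from 269.7, 269.8 and 260.1 to 187 and 183 (log2 fold change -0.52, SE 0.09, adjusted p 9.92e-06). TFE3 KO went from 289.8, 303 and 302 to 201, 184 and 177 (-0.67, adjusted p 3.11e-09), and DKO from 274, 272 and 294 to 202, 189 and 217 (-0.46, adjusted p 7.55e-06). In TFEB KO the control libraries were 158, 195 and 218 and the Torin libraries 179.7, 171 and 207. These overlapped, with a log2 fold change of -0.03 (95% interval -0.19 to 0.14), and the control libraries there were below every control library of the other genotypes.

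ATIC and IMPDH2, at and just after the IMP step, moved the other way. ATIC rose in WT from 231, 222 and 225 to 301 and 274 (log2 fold change 0.35, SE 0.08, adjusted p 0.000308) and in DKO from 280.3, 263 and 255 to 333, 327 and 311 (0.28, adjusted p 0.000683). In TFE3 KO the value was 0.14 (95% interval 0.00 to 0.28, adjusted p 0.0950) and in TFEB KO 0.13 (-0.01 to 0.27). Both passed with edgeR on recovered reads (adjusted p 0.0353 and 0.0389). IMPDH2 rose in WT to 264 and 289.9 (0.34, SE 0.09, adjusted p 0.00249), in TFE3 KO from 236, 214 and 235 to 301, 276 and 256 (0.28, adjusted p 0.00439) and in DKO from 185, 229 and 265 to 267, 260.4 and 259.9 (0.23, adjusted p 0.0213). The DKO groups overlapped, and the call there did not hold without DKO control replicate 1 (adjusted p 0.381). The IMPDH2 rise in WT did not hold without WT Torin replicate 3 (adjusted p 0.0726). With the identical column counted as WT Torin, the WT rises of ATIC and IMPDH2 did not pass (adjusted p 0.124 and 0.704), the IMPDH2 rises in TFE3 KO (0.103) and DKO (0.192) were lost as well, and that column held 209 for ATIC and 159 for IMPDH2.

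The remaining members passed in 1 genotype or in 0. DHODH fell in WT from 22.2, 21.6 and 21.5 to 15.7 and 16.6 (log2 fold change -0.41, adjusted p 0.0332). That call was lost when any 1 of the 5 libraries was left out (adjusted p 0.0547 to 0.151), and with edgeR (0.0906). In TFEB KO its value was -0.30 (adjusted p 0.0961), which passed in 2 of the alternative settings (0.0474 and 0.0200), and in TFE3 KO and DKO it was 0.08 and 0.02. PFAS fell in TFE3 KO from 83.4, 87.4 and 67.2 to 50.2, 57.2 and 55.6 (-0.53, adjusted p 0.000858). It was -0.25 in WT (adjusted p 0.180), -0.05 in TFEB KO and -0.07 in DKO. The WT value passed in 5 of 19 alternative settings. These included leaving out WT control replicate 1 (adjusted p 0.0114) and counting the identical column as WT Torin (0.0327). GART fell in TFE3 KO from 75.4, 78.8 and 72.8 to 64.9, 67.5 and 54.9 (-0.28, adjusted p 0.0115), and not without TFE3 KO Torin replicate 3 (adjusted p 0.120) or TFE3 KO control replicate 2 (0.0520). In WT, TFEB KO and DKO GART was -0.22 (adjusted p 0.0925), -0.08 and -0.11. Its WT control and Torin libraries did not overlap. The TFE3 KO response minus the WT response did not pass for PFAS (-0.28, adjusted p 0.674) or GART (-0.06, 0.944). CAD did not pass in any genotype, with values of -0.12 to 0.20. Rescaling to the upper quartile moved the median of all genes by 0.11 to 0.12 on the log2 scale in the 4 Torin responses. The share of higher calls among all calls went from 46.7% to 60.2% in WT, from 49.5% to 60.7% in TFE3 KO, from 45.3% to 62.4% in TFEB KO and from 49.2% to 61.9% in DKO. The falls of CTPS1, UMPS and PPAT held on that scale in all 4 genotypes, whereas those of DHODH in WT (adjusted p 0.142) and GART in TFE3 KO (0.161) did not. On it ATIC also rose in TFE3 KO (adjusted p 0.00151) and TFEB KO (0.00370) and IMPDH2 in TFEB KO (0.0212).

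HBSS and Torin were also compared with each other in WT cells, 2 libraries against 2. UMPS (log2 difference of HBSS minus Torin -0.81, adjusted p 1.32e-07), PFAS (-0.74, adjusted p 0.000233), IMPDH2 (-0.66, adjusted p 5.97e-07) and ATIC (-0.60, adjusted p 1.08e-07) were lower in HBSS. CTPS1 (0.88, adjusted p 1.18e-06), PAICS (0.41, adjusted p 0.000832) and GART (0.35, adjusted p 0.01) were higher in HBSS. So 4 members were lower and 3 higher in HBSS, where 23.1% of all genes were lower and 26.1% higher. UMPS, which makes UMP, stood lower in HBSS, and CTPS1, further along the same route at the step from UTP to CTP, stood lower in Torin. DHODH (-0.38, adjusted p 0.0660), CAD (-0.31, adjusted p 0.160) and PPAT (0.35, adjusted p 0.0571) did not pass. With the identical column counted as WT Torin, 3 of the 7 passed, UMPS, CTPS1 and ATIC. The GART difference was lost without WT HBSS replicate 1 (adjusted p 0.115), without WT Torin replicate 3 (0.0633) or on the upper-quartile scale (0.286), and PAICS on that scale too (0.0943). That scale moved the median of all genes by -0.18, took the share of higher calls among all calls from 53.1% to 35.5%, and let CAD (adjusted p 0.0173) and DHODH (0.00564) pass as lower in HBSS.

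The knockouts without drug ask what each clone had at rest. In TFEB KO 3 members were lower than in WT and 0 higher, where 7.18% of all genes were lower and 7.46% higher. PAICS was 158, 195 and 218 against 269.7, 269.8 and 260.1 (log2 fold change -0.49, SE 0.08, adjusted p 3.17e-05). IMPDH2 was 169.0, 169.4 and 160.0 against 228, 206 and 219.9 (-0.39, adjusted p 0.000945). GART was 67.9, 69.2 and 58.7 against 79.5, 79.2 and 86.6 (-0.32, adjusted p 0.0146). For all 3 genes every TFEB KO library lay below every WT library. The GART call did not hold without WT control replicate 3 (adjusted p 0.0755) or TFEB KO control replicate 3 (0.0993). With the identical column counted as WT Torin, IMPDH2 (adjusted p 0.0951) and GART (0.0846) did not pass, while PAICS did. The values of UMPS and CTPS1 were -0.26 (adjusted p 0.0575) and -0.27 (adjusted p 0.118), and the other 5 members lay between -0.17 and 0.00.

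In TFE3 KO and in DKO the single member that passed was ATIC. In TFE3 KO it was 270.4, 258 and 259.5 against 231, 222 and 225 in WT (log2 fold change 0.21, adjusted p 0.0413), where 3.57% of all genes were higher and 5.84% lower. In DKO it was 280.3, 263 and 255 (0.23, adjusted p 0.0187), where 5.64% of all genes were higher and 7.49% lower. The call in TFE3 KO was lost when any 1 of the 6 libraries was left out (adjusted p 0.0531 to 0.153), and that in DKO without WT control replicate 2 (0.0650), WT control replicate 3 (0.0557) or DKO control replicate 1 (0.105). With the identical column counted as WT Torin neither passed (0.275 and 0.175). On the upper-quartile scale the share of higher calls among all calls in DKO went from 43.0% to 53.8%. The 3 knockouts share the WT controls. The other 9 members lay between -0.12 and 0.35 in TFE3 KO and between -0.07 and 0.11 in DKO.

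The clones were also compared directly. Without drug 5 members were higher in TFE3 KO than in TFEB KO and 0 lower, where 14.3% of all genes were higher and 15.6% lower, and the median of the members was 0.31 against 0.00 over all genes. They were PAICS (log2 difference 0.66, adjusted p 2.31e-08), PFAS (0.52, adjusted p 0.00254), IMPDH2 (0.45, adjusted p 3.66e-05), CTPS1 (0.35, adjusted p 0.0185) and ATIC (0.28, adjusted p 0.00164). The PAICS libraries were 289.8, 303 and 302 in TFE3 KO against 158, 195 and 218 in TFEB KO. The CTPS1 difference was lost without TFEB KO control replicate 1 (adjusted p 0.0933), TFE3 KO control replicate 1 (0.0533) or TFE3 KO control replicate 3 (0.0658), and with the identical column counted as WT Torin (0.142). CAD was 0.38 (adjusted p 0.0539), and it passed on the upper-quartile scale (0.0435) and with the identical column counted as WT HBSS (0.0459). DHODH, UMPS, PPAT and GART lay between 0.03 and 0.21.

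**Figure D3:**
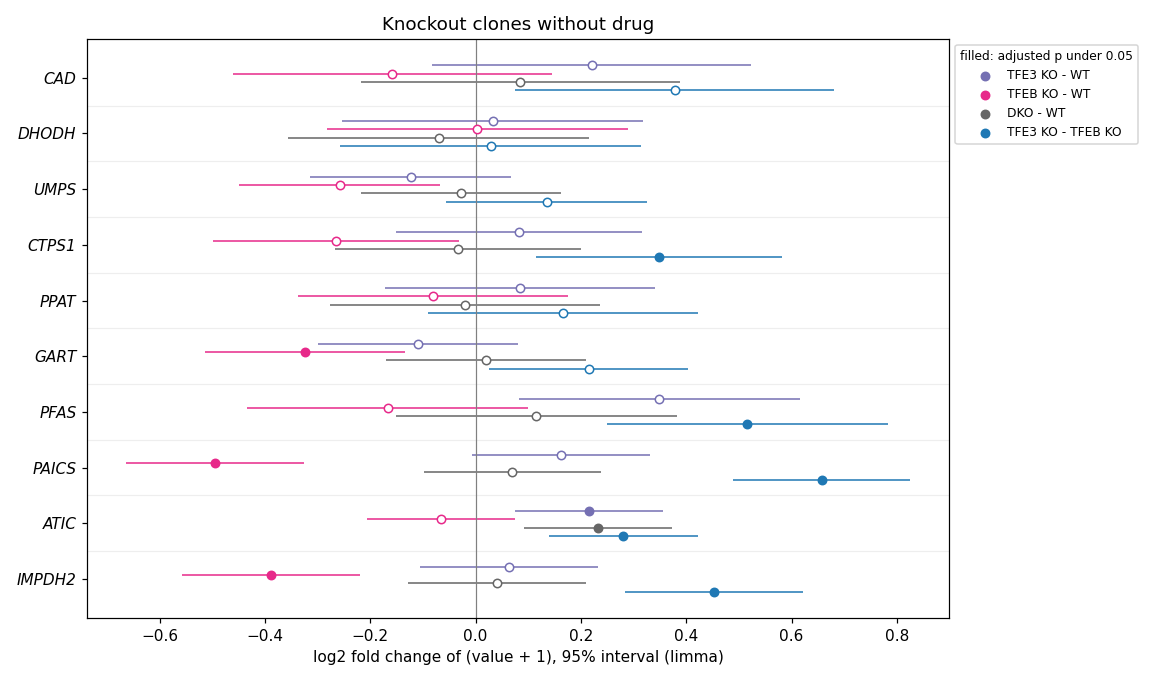
Log2 differences of the 10 enzymes between clones without drug (x axis, limma on log2 of value + 1) with 95% intervals. Filled points have an adjusted p under 0.05. TFE3 KO against TFEB KO (blue) is filled and to the right of 0 for CTPS1, PFAS, PAICS, ATIC and IMPDH2, and TFEB KO against WT (pink) is filled and to the left of 0 for GART, PAICS and IMPDH2.

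Under Torin the clones differed in other members. TFEB KO was lower than WT in IMPDH2 (180.4, 188 and 172 against 264 and 289.9, log2 difference -0.62, adjusted p 4.04e-06), UMPS (-0.36, adjusted p 0.0135) and ATIC (-0.28, adjusted p 0.00824), where 8.56% of all genes were lower and 9.39% higher. The UMPS difference was lost without WT Torin replicate 3 (adjusted p 0.247) and without TFEB KO Torin replicate 3 (0.0501), and that of ATIC without WT Torin replicate 2 (0.161). All 3 were lost with the identical column counted as WT Torin (IMPDH2 0.0988). The other 7 members lay between -0.19 and 0.23. TFE3 KO was higher than WT in DHODH (21.2, 23.2 and 26.8 against 15.7 and 16.6, 0.52, adjusted p 0.0264) and lower in UMPS (-0.32, adjusted p 0.0451), where 3.41% of all genes were higher and 6.23% lower. These 2 calls were lost when 1 library was left out, in 4 of 5 cases for DHODH (adjusted p up to 0.169) and 3 of 5 for UMPS (up to 0.408), and that of UMPS with the identical column counted as WT Torin (0.822). The other 8 members lay between -0.22 and 0.06. DKO was lower than WT in CTPS1 (17.1, 16.1 and 13.0 against 19.2 and 27.5, -0.56, adjusted p 0.00234), where 7.03% of all genes were lower and 5.03% higher, and this was lost without WT Torin replicate 3 (0.240). The other 9 members lay between -0.16 and 0.35. On the upper-quartile scale the share of higher calls among all calls in this comparison went from 41.7% to 53.9%.

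TFE3 KO under Torin was higher than TFEB KO under Torin in IMPDH2 (301, 276 and 256 against 180.4, 188 and 172, log2 difference 0.62, adjusted p 6.58e-08), DHODH (0.41, adjusted p 0.0218) and ATIC (0.29, adjusted p 0.000913), where 17.1% of all genes were higher and 18.1% lower. IMPDH2 in TFEB KO was thus below WT and TFE3 KO both without drug and under Torin, with no overlap of libraries in these 4 comparisons. The DHODH difference was lost without TFE3 KO Torin replicate 3 (adjusted p 0.123), TFEB KO Torin replicate 1 (0.0586) or TFEB KO Torin replicate 3 (0.0717), or with the identical column counted as WT Torin (0.0786). The other 7 members lay between -0.24 and 0.06.

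Whether a knockout altered the Torin response itself was tested as the difference of the 2 responses. Against WT, 0 members passed in TFE3 KO and 0 in DKO, where 0.49% and 0.314% of all genes had a higher response and 0.575% and 0.192% a lower one. The numbers were also 0 in both with edgeR and DESeq2. In TFEB KO the PAICS response was higher than in WT by 0.50 (SE 0.13, adjusted p 0.0338), where 0.812% of all genes had a higher response and 0.345% a lower one. That call was lost without 1 library in 7 of 11 cases (adjusted p up to 0.162), and with the identical column counted as WT Torin (0.401). The other 9 members lay between -0.23 and 0.31. The response of TFE3 KO was below that of TFEB KO in PAICS (difference -0.64, SE 0.12, adjusted p 0.000169) and in CTPS1 (-0.53, SE 0.16, adjusted p 0.0363), where 4.58% of all genes had a lower response and 3.1% a higher one. The PAICS difference held without each of the 12 libraries in turn, and that of CTPS1 was lost in 7 of 12 cases (adjusted p up to 0.103) and with the identical column counted as WT Torin (0.298). The other 8 members lay between -0.48 and 0.38. For CTPS1 the responses were -2.18 and -1.66, and the control libraries were 93.6, 89.1 and 95.3 against 67.2, 79.5 and 71.5. For PAICS the libraries under Torin were 201, 184 and 177 in TFE3 KO and 179.7, 171 and 207 in TFEB KO. The PAICS values under Torin overlapped, and the control values did not. Across the other members the intervals of the TFE3 KO response minus the WT response were wide, for example -0.65 to 0.05 for CTPS1 and -0.48 to 0.09 for UMPS.

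CAD and PFAS varied widely within the WT, TFE3 KO and DKO controls, where the library lowest in both was also the lowest in MALAT1. MALAT1, a long noncoding RNA kept in the nucleus, was lowest in WT control replicate 1 (1619, against 3464 and 2469), TFE3 KO control replicate 3 (1502, against 2139 and 2225) and DKO control replicate 3 (933, against 1960.4 and 1909). CAD in these 3 libraries was 59.2, 77.8 and 68.4, the lowest of each group, and PFAS was 47.2, 67.2 and 56.3, also the lowest of each group. These libraries also held the most reads of their groups, 6251213, 6526392 and 6395971. In the 9 groups PFAS and MALAT1 were lowest in the same library in 8, and CAD and MALAT1 in 4. How often other genes were lowest together with MALAT1 was not counted. MALAT1 also differed between treatments, with 933 to 3464 in control libraries, 4078 to 4585 in HBSS and 3931 to 6981 in Torin.

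Without those 3 control libraries, a setting chosen after seeing the data, 9 calls of members were gained and 4 lost. Because these libraries were the lowest of their groups in CAD and PFAS, leaving them out raised those control values and narrowed their spread. The gained calls, all of CAD or PFAS, follow in part from that choice and are no independent support. CAD fell in HBSS (adjusted p 0.0116) and under Torin in TFE3 KO (0.0318). It was lower in TFEB KO than in WT (0.00770), higher in TFE3 KO than in TFEB KO without drug (6.95e-05) and lower in HBSS than in Torin (0.0152). CAD in HBSS also passed without WT control replicate 1 alone (adjusted p 0.0397). PFAS then fell under Torin in WT (adjusted p 0.00533), against 0.180 with all libraries, and was lower in TFEB KO than in WT (0.0380). The responses of CAD and PFAS in TFE3 KO were then below those in TFEB KO (adjusted p 0.0271 and 0.0110). The calls lost were DHODH under Torin in WT (adjusted p 0.0732), ATIC in TFE3 KO against WT without drug (0.0758), CTPS1 in TFE3 KO against TFEB KO without drug (0.0647) and the CTPS1 response of TFE3 KO against that of TFEB KO (0.0768). The part of what MALAT1 marks in these results was not tested. The falls of UMPS and CTPS1 in HBSS and under Torin passed with and without these libraries.

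**Figure D4:**
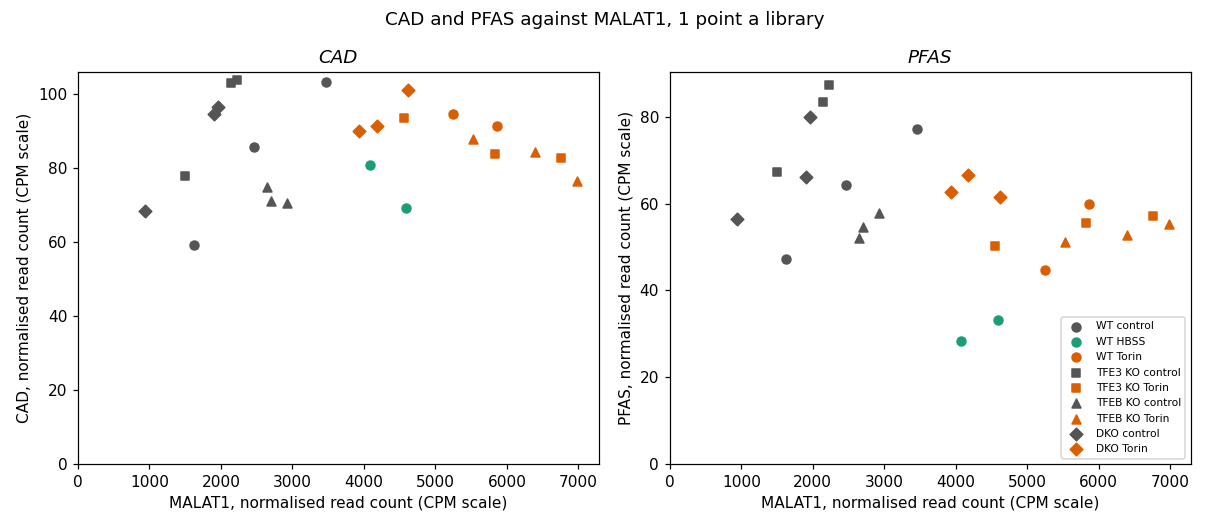
CAD (left) and PFAS (right) against MALAT1, all as normalised read counts (CPM scale, axes from 0), with 1 point for each of 25 libraries. Colours mark treatment and shapes mark genotype (circle WT, square TFE3 KO, triangle TFEB KO, diamond DKO). In WT, TFE3 KO and DKO controls (grey) the library lowest in MALAT1 is also the lowest in CAD and PFAS, and the 2 HBSS points have the lowest PFAS values, 28.3 and 33.3.

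The rest of nucleotide metabolism was counted in lists named by function. Of all genes tested 24.7% fell and 23.6% rose in HBSS, and 23.4% fell and 20.5% rose under Torin in WT. The shares for the other comparisons are given above. Of 10 further de novo genes 5 fell and 1 rose in HBSS, and 5 fell and 2 rose under Torin in WT. PRPS1, which makes phosphoribosyl pyrophosphate, fell in all 5 responses, by 0.92 in HBSS (adjusted p 1.88e-07), 0.98 under Torin in WT (8.33e-08), 1.28 in TFE3 KO, 0.94 in TFEB KO and 1.01 in DKO on the log2 scale. IMPDH1, the other IMP dehydrogenase, fell by 1.20 in HBSS (adjusted p 1.32e-09), and GMPS, the GMP synthetase, by 0.92 under Torin in WT (adjusted p 1.19e-07). IMPDH1 fell under Torin in all 4 genotypes, with log2 fold changes of -0.52 in WT (adjusted p 0.00299), -0.76 in TFE3 KO (2.31e-06), -0.49 in TFEB KO (0.00217) and -0.73 in DKO (5.63e-06). IMPDH2 rose in WT, TFE3 KO and DKO, and was 0.12 (adjusted p 0.288) in TFEB KO. ADSS, an adenylosuccinate synthetase, fell by 0.90 in HBSS (adjusted p 2.27e-09). ADSSL1, its muscle-type relative, rose under Torin in all 4 genotypes by 0.76 to 1.48, at values near the detection floor.

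Of 12 tested salvage genes 6 fell and 2 rose in HBSS and the same numbers did under Torin in WT. PNP, which splits purine nucleosides, fell in all 5 responses, with log2 fold changes of -1.32 in HBSS and -1.42 under Torin in WT (adjusted p 2.38e-09 and 6.40e-10). HPRT1, which reuses hypoxanthine and guanine, fell by 0.96 under Torin in WT (adjusted p 6.50e-06), and TK1, the cytosolic thymidine kinase, by 1.30 (adjusted p 2.25e-11). UCKL1, a uridine-cytidine kinase relative, rose by 1.01 in HBSS (adjusted p 2.30e-07). The median of the list was -0.24 in HBSS and -0.33 under Torin in WT.

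Genes of deoxynucleotide supply were lower under both treatments. Of 12 tested genes 9 fell and 0 rose in HBSS, and 9 fell and 0 rose under Torin in WT, with medians of -0.44 and -0.82. RRM2, the regulated subunit of ribonucleotide reductase, had a log2 fold change of -2.37 under Torin in WT (adjusted p 1.52e-25), -2.41 in TFE3 KO, -1.31 in TFEB KO and -2.24 in DKO. TYMS, thymidylate synthase, fell by 1.25 (adjusted p 1.10e-13) and DCTPP1, a dCTP pyrophosphatase, fell by 1.51 (adjusted p 2.03e-15) under Torin in WT. DCTPP1 and NME1, a nucleoside diphosphate kinase, fell by 1.59 and 1.41 in HBSS. Genes of S phase moved alongside. Of 8 tested, 7 fell and 1 rose in HBSS, 7 fell and 0 rose under Torin in WT, TFE3 KO and TFEB KO, and 8 fell in DKO. The gene that rose in HBSS was MKI67, a marker of cycling cells, with a log2 fold change of 0.97 (adjusted p 0.00234), and under Torin in WT it was -0.16 (adjusted p 0.620). PCNA, the sliding clamp of replication, fell by 1.59 in HBSS and 1.82 under Torin in WT (adjusted p 1.83e-13 and 6.06e-15). The part of a change in the share of cells in S phase in the members' values was not tested, and fewer cells in a state and less RNA per cell cannot be told apart in these bulk libraries.

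Genes listed for serine and folate-bound carbon supply, which feeds the purine ring, mostly moved in opposite directions in WT under the 2 treatments. Of 13 tested genes 8 rose and 1 fell in HBSS, whereas 1 rose and 8 fell under Torin in WT, with medians of 0.72 and -0.52. Under Torin 6 fell and 2 rose in TFE3 KO (median -0.35), and 8 fell and 1 rose in TFEB KO (-0.58). In DKO 6 fell and 3 rose (-0.16). ASNS, asparagine synthetase, is in the list although its product is asparagine. Its log2 fold change was 2.14 in HBSS (adjusted p 6.35e-16) and -1.29 under Torin in WT (adjusted p 3.78e-09). MTHFD2, the mitochondrial folate dehydrogenase, had log2 fold changes of 1.65 (adjusted p 3.69e-17) and -1.40 (adjusted p 1.72e-14) in the same comparisons. In HBSS against Torin, tested directly, 8 of the 13 were higher in HBSS and 0 lower. PSPH, the last enzyme of serine synthesis, rose by 1.81 in HBSS (adjusted p 8.79e-14). PSAT1, the aminotransferase of serine synthesis, was lower in the clones without drug than in WT. Its mean was 22.2 in WT and 5.18 in TFEB KO (log2 fold change -1.92, adjusted p 1.38e-06). In TFE3 KO and DKO its means of 0.491 and 0.156 were in or below the range of the floor of 3 reads, so no fold is given, and the adjusted p-values were 4.56e-16 and 2.26e-17 (limma).

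**Figure D5:**
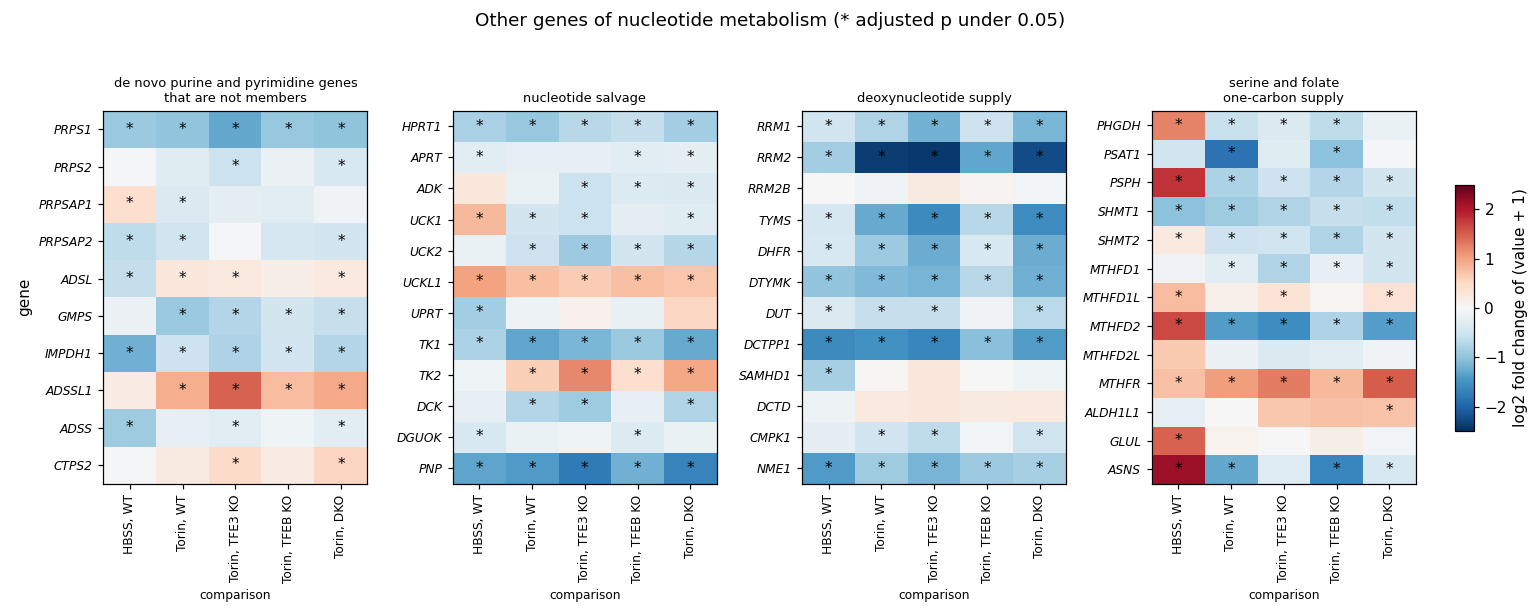
Log2 fold changes (colour, blue lower, red higher) of other genes of nucleotide metabolism and one-carbon supply (vertical) in HBSS and in the 4 Torin responses (horizontal). Stars mark an adjusted p under 0.05, and colours are capped at 2.5 in either direction. The serine and folate list is mostly red in HBSS and mostly blue under Torin in WT, and RRM2 and PNP are blue in all 5.

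Of 15 listed genes of nucleotide breakdown 7 were tested. In HBSS 1 fell and 1 rose, under Torin 1 fell and 0 rose in WT, 1 fell and 1 rose in each of TFE3 KO and TFEB KO, and 1 fell and 3 rose in DKO. In HBSS against Torin, and in TFEB KO against WT under Torin, 2 were lower and 2 higher. UPP1, uridine phosphorylase, fell under Torin in all 4 genotypes, with log2 fold changes of -1.12 in WT (adjusted p 6.28e-10) and -1.80 in TFE3 KO (adjusted p 3.21e-18), and ADA, adenosine deaminase, fell by 1.10 in HBSS (adjusted p 8.40e-09). Of 7 regulators 2 fell and 2 rose in HBSS, near the shares of all genes, and 4 fell and 2 rose under Torin in WT. ATF4, the amino acid response factor, rose by 1.87 in HBSS (adjusted p 5.05e-26). MYC, a factor known to act on nucleotide synthesis genes, rose under Torin in all 4 genotypes (log2 fold changes of 1.14 to 1.52), while E2F1 fell by 1.93 in WT (adjusted p 7.94e-11). In HBSS the value of MYC was 0.31 (adjusted p 0.330).

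The members did not share 1 profile over the 9 group means. CTPS1 and PPAT had a Pearson r of 0.98 with each other, and ATIC and IMPDH2 one of 0.88, whereas CTPS1 and ATIC had -0.50. The 3 members with an E-box in the window, PPAT, DHODH and ATIC, had values of -0.77, -0.41 and 0.35 under Torin in WT. Among the genes of the table with the most similar profile to the average of the standardised members were NOL10 (r 0.987), TRMT2A (0.978), NDUFB10 (0.969) and HNRNPU (0.966), out of the genes with a mean value of at least 20. These are descriptions over 9 points that share their libraries and scaling, and carry no test.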

How the data were processed

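Polyadenylated RNA of 501mel cells was sequenced as 3′ end libraries. The authors trimmed reads with cutadapt 2.10, checked their quality with FastQC 0.11.9, mapped them to hg38 with STAR 2.7.8a and normalised with edgeR. Per gene symbol, the deposited table gives a signal that equals CPM over a constant of each library. The read counter, scaling method and filter are not given in the sources used here. In each of the 27 columns 100% of values were whole multiples of the value of 1 read (tolerance 0.01 reads), so reads were recovered by division. Floors cover counting error only.

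The members and lists were chosen with earlier results of these data known. Groups came from the labels. The identical columns were in no fit, which left 25 libraries in 9 groups. The test took 13052 genes, those that reached 1 in 3 or more libraries, and passed over 471. The scale was log2(value + 1), and fold changes of low genes are understated by the added 1. A mean per group was fitted with limma 3.58.1 in R 4.3.3 (eBayes with trend and robust), with 18 comparisons as contrasts. p-values were 2-sided and Benjamini-Hochberg adjusted within each comparison, and SEs and 95% intervals are those of the fit. A gene was said to rise or fall at an adjusted p under 0.05. The procedure was tested on simulated counts first. edgeR 4.0.16 (quasi-likelihood) and DESeq2 1.42.0 on recovered reads, other scalings, filters and pseudocounts, a replicate block and leaving out each library were alternatives.

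By rule all 10 members are reported in every comparison. In those between clones and between responses, members that did not pass are given together by range. From the other lists, named genes are up to 3 with adjusted p under 0.05 and the largest absolute log2 fold change in a response or a knockout without drug. MYC in HBSS was named after its value was seen, as were the list genes followed into responses beyond the 3. Positions are GENCODE release 44, and sequences RefSeq. One of the genes most alike in profile is not reported here.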

Additional observations from a re-analysis of the deposited data

Results flagged for a closer look

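For 2 members, PAICS and CTPS1, a difference between genotypes in the Torin response passed a test of the difference itself. The PAICS response was higher in TFEB KO than in WT by 0.50 on the log2 scale (SE 0.13, adjusted p 0.0338, limma), with responses of -0.03 and -0.52. It was lost in 7 of the 11 cases in which 1 library was left out (highest adjusted p 0.162). The PAICS response of TFE3 KO minus that of TFEB KO was -0.64 (SE 0.12, adjusted p 0.000169), with responses of -0.67 and -0.03, and it held in all 12 such cases. The CTPS1 response of TFE3 KO minus that of TFEB KO was -0.53 (SE 0.16, adjusted p 0.0363), with responses of -2.18 and -1.66, and it was lost in 7 of 12 cases (highest adjusted p 0.103). In both genes the TFEB KO controls were lower than the TFE3 KO controls, as given above.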

How the results depend on the processing

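In all, 39 alternative settings were tried, 1 of them, leaving out the 3 control libraries lowest in MALAT1, chosen after seeing the data. No log2 fold change of a called member changed sign. Of 59 calls of members, 31 held in every setting, and counting the identical column as WT Torin alone lost 22. As given above, that column lay nearer to WT HBSS in every member, so this setting puts a library with such values into WT Torin. Counted as WT HBSS, the number of members that passed fell in no comparison. The number of members that passed moved by over 1.5 times as follows. Rescaling to the upper quartile gave 5 in place of 3 for Torin in TFEB KO and 1 in place of 2 for TFE3 KO against WT under Torin. A fit of only the libraries compared gave 0 in place of 1 for TFE3 KO and for DKO against WT without drug and for the TFEB KO response minus WT, and 0 in place of 2 for TFE3 KO against WT under Torin. eBayes without trend or robust gave 0 for TFE3 KO against WT without drug and for the TFEB KO response minus WT, and 1 in place of 2 for TFE3 KO against WT under Torin and for the TFE3 KO response minus TFEB KO. edgeR, DESeq2 and the replicate block each gave 1 for TFE3 KO against WT under Torin. The identical column counted as WT Torin gave 3 in place of 7 for HBSS against Torin. Counted as WT Torin or under both labels it gave 0 for TFE3 KO and DKO against WT without drug, 1 in place of 3 for TFEB KO, 0 in place of 3 for TFEB KO and 4 in place of 1 for DKO against WT under Torin, 0 for the TFEB KO response minus WT and 1 for the TFE3 KO response minus TFEB KO. Counted as WT Torin it left 4 genes of all tested in place of 151 for the TFEB KO response minus WT and 249 in place of 1003 for the TFE3 KO response minus TFEB KO. Without the 3 libraries lowest in MALAT1 the number was 0 for TFE3 KO and 5 for TFEB KO against WT without drug. The cause of these shifts was not tested.

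Leaving out 1 library gave 5 to 8 members for HBSS, 5 to 7 for Torin in WT, 2 to 4 in TFEB KO, 2 to 4 for TFEB KO against WT without drug, 0 to 1 for TFE3 KO and for DKO against WT without drug, 0 to 2 for TFE3 KO, 2 to 3 for TFEB KO and 0 to 1 for DKO against WT under Torin, 2 to 3 for TFE3 KO against TFEB KO under Torin, 0 to 1 for the TFEB KO response minus WT and 1 to 2 for the TFE3 KO response minus TFEB KO.

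The labels number replicates, but same-numbered libraries did not deviate together. Of 92 correlations of their deviations from group means, 4 were over 0.1 (median 0.0067, lowest -0.192, highest 0.161). With the number as a replicate block, 177 of 180 tests of members kept their call, UMPS in TFE3 KO against WT under Torin was lost (adjusted p 0.0514), and PPAT in HBSS against Torin (0.0423) and CAD in TFE3 KO against TFEB KO without drug (0.0377) passed. With n of 2 or 3 in each group and 54 reads in the lowest member library, small changes may have been missed.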
